A study of Mus musculus with 2 samples.

Results

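Immediate early gene high (IEG-high) glioma cells were the cells with the largest share of RNA from Fos, Junb, Egr1, Ier2 and Nr4a1 in each of 2 pools of mouse glioma cells. Of 7493 deposited cell barcodes, 5370 had at least 500 genes, at most 15% mitochondrial counts and at least 3000 unique molecular identifiers (UMIs, each standing for 1 captured RNA molecule). The summed UMIs of the 5 genes were divided by all UMIs of the cell, and the top 5% of each pool by this score were taken: 138 of 2749 cells in pool 1 and 132 of 2621 in pool 2, 270 in all. They were set against the lower 50% of the same pool by the same score, 1375 and 1311 cells, called low-score cells here.

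The tumours were induced in C57BL/6 mice by transferring PDGFB, a ligand of platelet-derived growth factor receptors, into the ventricles of the embryonic telencephalon, and were taken at an age of about 40 days. Tumour tissue was dissociated, cells were enriched by fluorescence-activated sorting for GFP, and the samples were combined 2 by 2 before droplet capture, with 4000 cells per pool loaded. All samples carried the same transgene and no control tissue was analysed here, so both pools form 1 group (n = 2). The tumour behind a cell was not known, and the titles of both pools share a code whose meaning is not given, so the pools may not be fully independent. The files also name a different day for each pool, and every comparison was therefore made within pools.

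Immediate early genes are switched on within minutes of a signal at the cell surface, without new protein synthesis, through transcription factors that are already present, such as SRF with its ternary complex partners and CREB. Fos and Jun family proteins pair to form AP-1, Egr proteins are zinc finger activators, and many other early genes encode phosphatases, mRNA decay factors and inhibitors that end the response. In cells driven by platelet-derived growth factor the receptor signals through the ERK kinase pathway, which is a classical inducer of Fos and Egr1. Which signal acted on the cells described here was not tested. Expression begun in the tumour cannot be told apart here from expression begun during dissociation and sorting.

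The lowest scores inside the top class were 1988, 1989 and 1991 CPM (the 5 genes' counts per 1000000 UMIs of the cell) in pool 1 and 2130, 2130 and 2134 in pool 2. The highest scores just outside it were 1983, 1961 and 1929 in pool 1 and 2120, 2116 and 2116 in pool 2. The scores ran on without a gap at the cut, so the class is a range set by a percentile. Scores beside such a cut cannot tell whether a separate cell type lies above it. The pool medians were 393 and 550 CPM. IEG-high cells held a median of 8308 UMIs in pool 1 (3012 to 39740) and 13459 in pool 2 (3022 to 39917), against 9851 and 12363 in low-score cells. Their median mitochondrial share was 3.13% and 1.36%, against 2.78% and 1.30%. They were thus the shallower class in pool 1 and the deeper class in pool 2. Only 4 barcodes occurred in both pools.

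Fos lies on chromosome 12 (85473890 to 85477273), Junb and Ier2 on chromosome 8 (84974484 to 84978718 and 84661331 to 84662852) and Nr4a1 on chromosome 15 (101254269 to 101274795) of GRCm38. The levels of the 5 score genes chose the cells and are given as a description without a test, as CPM of the UMIs summed over a class. Fos, the AP-1 subunit best known as an early gene, stood at 1488 CPM in IEG-high cells and 48.7 in low-score cells of pool 1. In pool 2 it stood at 1571 and 67.9. Egr1, a zinc finger transcription factor, stood at 1119 and 52.0 CPM in pool 1 and at 1389 and 93.2 in pool 2. These 2 genes gave most of the score. Junb, another AP-1 subunit, was at 269 against 13.1 CPM in pool 1 and 318 against 18.7 in pool 2. Ier2, a nuclear early response protein, was at 193 against 27.1 and at 251 against 37.9 CPM. Nr4a1, an orphan nuclear receptor, had the smallest contrast, with 92.8 against 30.5 and 114 against 56.5 CPM. Per cell, the median UMI count of Fos among IEG-high cells was 6 in pool 1 and 15.5 in pool 2, with maxima of 121 and 198. For Egr1 the medians were 9 and 16, with maxima of 47 and 70.

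**Figure D1:**
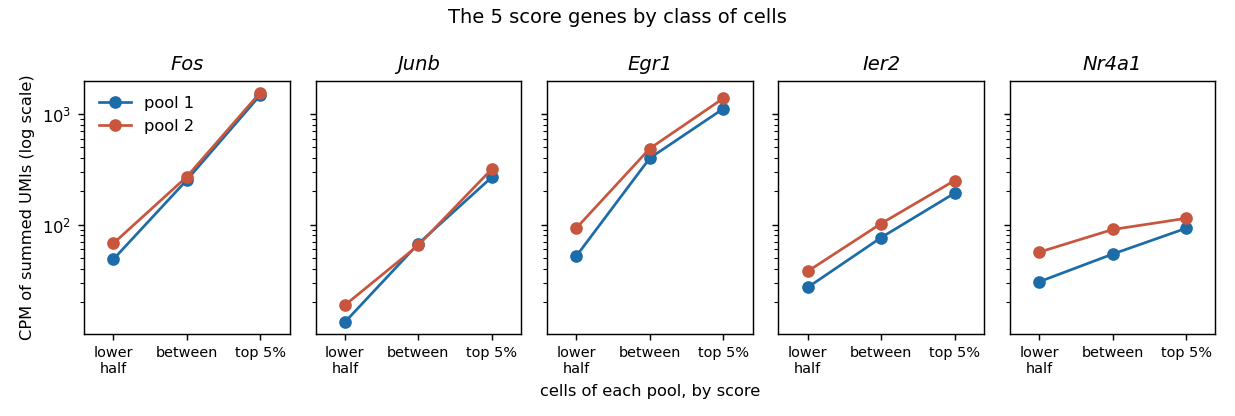
Level of each score gene (CPM of summed UMIs, log scale) in low-score cells, in the cells between the classes and in the top 5% of each pool, 1 point per pool and class. All 5 lines climb in both pools because these genes define the classes, from 48.7 to 1488 CPM for Fos in pool 1 and only from 30.5 to 92.8 CPM for Nr4a1.

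The score genes did not always occur together. All 5 were detected in 36 of 138 IEG-high cells of pool 1 and in 62 of 132 of pool 2, while 19 and 1 of these cells held 2 or fewer of them. Fos had the most UMIs of the 5 in 68 and 60 cells and Egr1 in 69 and 65. A tie was counted for the gene that comes first in the order Fos, Junb, Egr1, Ier2, Nr4a1. Junb led in 1 and 5 cells, Ier2 in 0 and 2, and Nr4a1 in none of the 270.

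Each score gene was also examined in cells chosen on the other 4, so that it had no part in the choice. Junb was then 12.3-fold higher in the top 5% than in low-score cells of pool 1 and 9.44-fold higher in pool 2. Fos was 11.1-fold and 9.45-fold higher, Ier2 4.57-fold and 4.11-fold, and Egr1 3.83-fold and 4.28-fold. Nr4a1 was 1.96-fold and 1.52-fold higher. All 5 were therefore higher in both pools when left out of the score, Junb and Fos most and Nr4a1 least. Leaving out Egr1 retained 60.9% and 68.2% of the IEG-high cells and leaving out Fos 68.8% and 71.2%, whereas without Junb, Ier2 or Nr4a1 between 90.9% and 94.9% stayed. When the score was computed on a random 50% of each cell's UMIs, the remaining UMIs gave 18.9-fold and 16.9-fold for Fos, 10.4-fold and 9.93-fold for Egr1 and 1.89-fold and 1.56-fold for Nr4a1. With 2 pools no permutation test could reach 0.05, and none is given.

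The label of glioma cells was checked against marker genes. The 10 markers of oligodendrocyte precursor cells (OPCs), among them Pdgfra, Olig1, Olig2 and Sox10, summed to 11756 CPM in IEG-high cells and 11541 in low-score cells of pool 1, and to 10688 and 11106 in pool 2. All 10 were tested and 0 were called by edgeR or DESeq2, and 0 had an unadjusted p under 0.05. A cell counted as bearing a list when it held at least 5 UMIs from at least 3 genes of that list. OPC markers were borne by 136 of 138 and 127 of 132 IEG-high cells, and by 1372 of 1375 and 1308 of 1311 low-score cells. By the same rule 93 and 105 IEG-high cells (67.4% and 79.5%) bore astrocyte and radial glia markers, against 996 and 1085 low-score cells (72.4% and 82.8%). Committed precursor markers were borne by 107 and 115 (77.5% and 87.1%), against 1210 and 1177 low-score cells (88.0% and 89.8%). Oligodendrocyte markers were borne by 3 and 10 (2.17% and 7.58%), against 80 and 74 low-score cells (5.82% and 5.64%). The share bearing oligodendrocyte markers was thus lower in IEG-high cells of pool 1 and higher in those of pool 2. Most cells thus bore several lists, and bearing the OPC list does not by itself set a cell's type. Neuron markers summed to 119 and 167 CPM in IEG-high cells and to 124 and 178 in low-score cells, endothelial markers to 70.7 and 59.5 against 73.4 and 71.8, and pericyte markers to at most 14.0 in any class of either pool. Of these lists 0 of 7, 0 of 3 and 0 of 2 tested genes were called by edgeR, none by DESeq2, and 0 had an unadjusted p under 0.05. The 2 tested T cell and neutrophil genes were called higher, with sums of 8.84 and 14.2 CPM against 0.129 and 1.23. These were 12 and 27 UMIs, of which 0 and 0 remained in IEG-high cells once cells of other types were left out, and neither gene was then tested. Only 2 genes of that list were in the files, so no cell could bear it. Erythroid markers had 0 UMIs in IEG-high cells, with 1 of 5 genes listed in pool 1 and 3 in pool 2. Of the astrocyte and radial glia markers 1 of 9 was called higher and 0 lower, with sums of 1298 and 1346 CPM against 1237 and 1379.

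A small number of cells did not match the label. Markers of microglia and macrophages were borne by 3 IEG-high cells in pool 1 (2.17%, exact 95% interval 0.451 to 6.22%) and 5 in pool 2 (3.79%, 1.24 to 8.62%), against 0 and 5 cells of the much larger low-score class. Put the other way, 3 of 10 microglia-marker cells in pool 1 and 5 of 12 in pool 2 fell into the top 5%. These 8 cells carried C1qa at 9996 and 8494 CPM and Csf1r at 1592 and 3318 CPM, while Pdgfra, the OPC receptor gene, had 0 and 3 UMIs in them. Summed over all IEG-high cells, the microglia list stood at 873 and 1235 CPM against 30.7 and 131 in low-score cells, and 12 of 12 tested microglia genes were called higher. With cells bearing microglia, endothelial, pericyte, erythroid or T cell and neutrophil markers taken out of the classes, the sums were 27.0 and 24.2 against 30.6 and 20.6 CPM. Therefore the edgeR comparison of the classes was also run with those cells removed before scoring, which gave 137 and 131 IEG-high cells. Values below are for all kept cells unless the removal is stated. Both values are given for part of the genes only, also where they differ.

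The main comparison asked which genes outside the score differed between IEG-high cells and low-score cells. UMIs were summed per pool and class, giving 4 libraries of 1357760 to 17946189 UMIs, and tested with edgeR with the pool as a block. Of 13272 genes tested, 247 were higher in IEG-high cells (1.86%) and 155 lower (1.17%) at an adjusted p under 0.05. At an unadjusted edgeR p under 0.05, 838 of the 13272 were higher and 781 lower. Lists as short as those used here can thus hold 0 calls at these shares. Without cells of other types, 115 of 13127 genes were higher (0.876%) and 137 lower (1.04%). Of the 247 higher genes 101 (40.9%) were among the 115, and 91 no longer had enough counts to be tested. Of the 155 lower genes 124 (80.0%) were among the 137. Among early genes outside the score the count hardly moved: 38 of 67 tested genes were higher and 0 lower with all cells, and 36 higher and 0 lower without other types, with medians of 0.91 and 0.75 on the log2 scale against 0.00 and 0.00 over all genes tested. The lists named 73 such genes, of which 67 had enough counts.

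The partners of Fos and Junb in AP-1 were higher in part. Of 9 other AP-1 genes tested, 5 were higher and 0 lower, with a median log2 fold change of 1.71 (1.58 without other types). Fosb, a close relative of Fos, stood at 234 CPM in IEG-high cells and 6.73 in low-score cells of pool 1, and at 207 and 15.4 in pool 2. The difference was 4.34 ± 0.20 on the log2 scale (SE, edgeR adjusted p = 8.4e-10). Its UMIs came from 63 and 75 cells, and no single cell gave more than 9.12% of them. Jun, the main dimer partner of Fos, stood at 948 against 277 CPM and at 1013 against 332 CPM, a log2 difference of 1.71 ± 0.07. Jund, the most steadily expressed Jun protein, was at 337 against 149 and at 485 against 239 CPM (1.12 ± 0.07). For these 3 genes both pools showed the same direction, and the largest fold was that of the gene with the lowest level outside the class. Maff, a small Maf protein that pairs with AP-1 relatives, was higher by 2.14 ± 0.37. Atf3, a stress-induced AP-1 relative, was at 8.84 and 43.2 CPM against 0.84 and 0.56, a log2 difference of 5.09 ± 0.57 that became 2.84 ± 0.61 without other cell types, when 3 and 6 cells held it. Fosl2, Mafk, Mafg and Jdp2 did not pass the test, with log2 differences of 0.67, 1.58, 0.20 and -0.25 without other types.

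Of 21 early transcription factors outside AP-1, 13 were higher and 0 lower (12 of 21 without other types, median log2 fold change 0.99 and 0.84). Klf4, a Krüppel-like zinc finger factor, stood at 56.7 against 2.20 CPM in pool 1 and 38.4 against 3.23 in pool 2 (4.12 ± 0.31, edgeR adjusted p = 4.6e-07). Klf2, its close relative, stood at 81.8 against 1.29 and 42.6 against 2.56 CPM (4.95 ± 0.36). Without other types the Klf2 difference was 4.77, and 1 cell gave 36.9% of its UMIs in pool 1. Klf6 was at 209 against 58.4 and 241 against 73.4 CPM (1.80 ± 0.08). The 3 Krüppel-like factors were thus raised in both pools, Klf6 least in fold but most in level. The Egr family followed its founding member. Egr2 stood at 22.1 against 2.85 and 27.9 against 4.46 CPM (2.80 ± 0.31) and Egr3 at 60.4 against 12.3 and 80.0 against 25.7 CPM (1.94 ± 0.17). Egr4 was higher by 1.94 ± 0.36. Csrnp1 was higher by 2.47 without other types. Smaller differences passed for Myc, Cebpd, Klf10, Id2 and Hes1, of which Id2, an inhibitor of basic helix-loop-helix factors, was at 253 against 140 and 344 against 300 CPM (0.51 ± 0.11). Nr4a2 and Nr4a3, the relatives of Nr4a1, did not pass without other types, with log2 differences of 0.50 ± 0.42 and 1.11 ± 0.35.

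**Figure D2:**
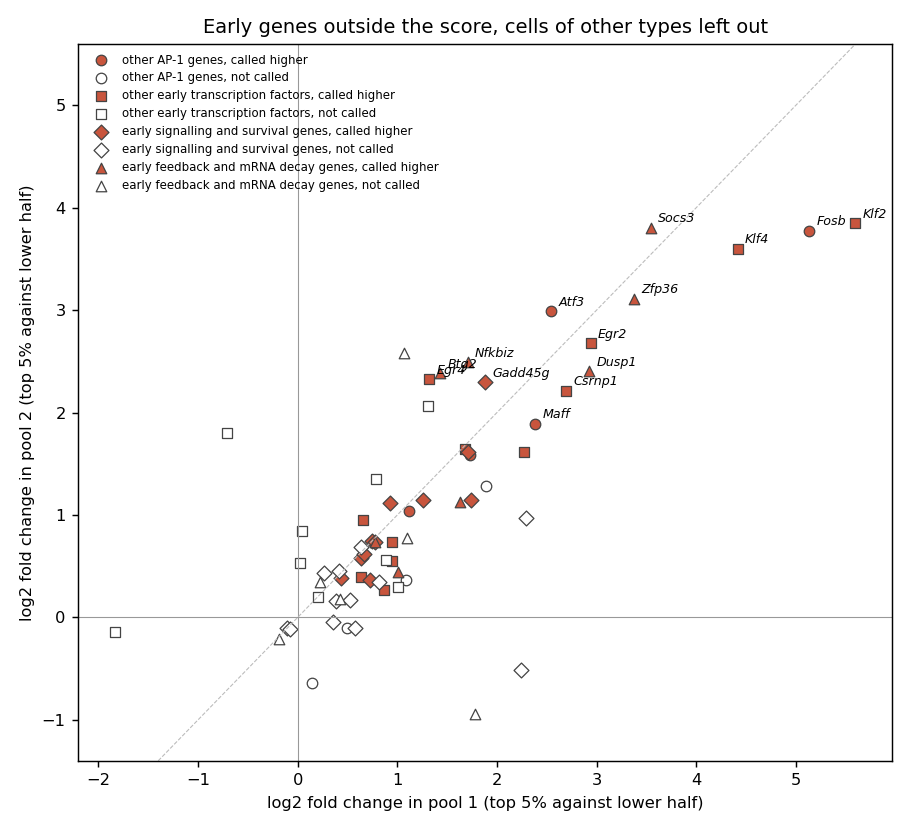
Log2 fold change of each tested early gene outside the score in pool 1 (x axis) and pool 2 (y axis), top 5% against low-score cells, with cells of other types left out; filled symbols passed the edgeR test and open symbols did not, and the dashed line marks equal values. The 36 called genes lie in the upper right, with Fosb at 5.14 and 3.78 and Socs3 at 3.54 and 3.81.

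Genes that limit the early response were higher as well. Of 14 feedback and mRNA decay genes, 9 were higher and 0 lower (8 of 14 without other types), with median log2 fold changes of 1.36 and 1.12. Socs3, an inhibitor of cytokine receptor signalling, stood at 178 against 15.2 CPM in pool 1 and 116 against 7.69 in pool 2 (3.74 ± 0.14, edgeR adjusted p = 2.1e-10), with UMIs in 71 and 58 cells. Dusp1, a phosphatase that inactivates stress kinases and ERK, was at 67.8 against 7.31 and 68.4 against 11.6 CPM (2.87 ± 0.18). Zfp36, which binds AU-rich elements and speeds the decay of early mRNAs, was at 19.9 against 1.88 and 37.9 against 2.95 CPM (3.59 ± 0.33). These 3 genes were at low level outside the class in both pools. Btg2, an antiproliferative cofactor of mRNA deadenylation, was at 61.1 against 14.1 and 104 against 15.6 CPM (2.49 ± 0.17, and 2.0 ± 0.18 without other types). Nfkbiz, Ppp1r15a, Tiparp and Nfkbia also passed. Of the Zfp36 relatives, Zfp36l2 passed with all cells only (0.35 ± 0.08), and Zfp36l1 did not pass. Without other types the log2 difference was 0.29 for each, with edgeR adjusted p = 0.081 for Zfp36l1 and 0.086 for Zfp36l2.

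Early signalling and survival genes were more mixed, with 11 of 23 higher and 0 lower in both comparisons and medians of 0.65 and 0.56. Gadd45g, a growth arrest and stress sensor, was at 86.9 against 23.9 and 97.9 against 20.3 CPM (2.10 ± 0.15). Ier3, an early survival gene, was at 116 against 35.9 and 107 against 46.8 CPM (1.45 ± 0.13). Gadd45b, of the same family as Gadd45g, was higher by 1.88 ± 0.27, and Ccn1, a secreted matrix protein, by 1.16 ± 0.17. Rgs2, a regulator of G protein signalling, was higher with all cells (1.79 ± 0.25) and not called without other types (0.43 ± 0.29, adjusted p = 0.66). Mcl1, Sgk1, Ifrd1 and Hbegf did not pass, with log2 differences between -0.10 and 0.26 without other types.

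The 250 bases before the start of the early genes were searched in the RefSeq promoter table (GRCm38.p6) for 4 sequences on both strands. They were the CArG box bound by SRF, the cAMP response element TGACGTCA bound by CREB, the AP-1 site TGANTCA and the EGR site GCGNGGGCG. Of the 73 early genes outside the score 59 had an entry. The EGR letters were found before 15 of 59 (25.4%), against 5.33% of all 27025 genes with an entry, and TGACGTCA before 7 of 59 (11.9%) against 1.77%. The CArG box was found before 3 of 59 (5.08%) against 1.62%, and TGANTCA before 4 of 59 (6.78%) against 7.82%. The EGR letters were also found before 6 of 18 upstream signalling genes (33.3%), a list with 0 calls, and before 3 of 14 heat shock chaperones (21.4%). Early gene promoters were richer in G and C, with a median of 63.6% against 52.4% over all entries, and the EGR letters are nearly all G and C. Among the 29 called genes with an entry 8 (27.6%) held the EGR letters, and among the 30 others 7 (23.3%). A match describes these letters only. Promoters of 6 called genes and of the score gene Nr4a1, each with a match, are shown 5′ to 3′ up to the base before the start, with the matched letters in capitals. No 2 matches overlapped.
Fosb, chr7:19310046-19310295, minus strand: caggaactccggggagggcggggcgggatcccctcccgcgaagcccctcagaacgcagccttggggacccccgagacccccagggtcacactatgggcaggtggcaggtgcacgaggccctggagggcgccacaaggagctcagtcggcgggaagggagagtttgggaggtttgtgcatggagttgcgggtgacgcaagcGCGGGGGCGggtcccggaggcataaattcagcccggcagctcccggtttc
Klf4, chr4:55532476-55532725, minus strand: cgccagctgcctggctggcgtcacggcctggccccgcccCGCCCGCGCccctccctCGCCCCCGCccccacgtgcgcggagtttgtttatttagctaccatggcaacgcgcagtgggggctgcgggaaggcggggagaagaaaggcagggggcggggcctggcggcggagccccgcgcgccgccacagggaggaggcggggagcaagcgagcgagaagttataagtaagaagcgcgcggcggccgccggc
Zfp36, chr7:28379229-28379478, minus strand: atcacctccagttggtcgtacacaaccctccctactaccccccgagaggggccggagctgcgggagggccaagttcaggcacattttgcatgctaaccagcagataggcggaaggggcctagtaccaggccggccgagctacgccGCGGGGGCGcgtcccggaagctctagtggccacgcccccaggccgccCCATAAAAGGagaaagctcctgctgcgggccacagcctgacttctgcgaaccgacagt
Dusp1, chr17:26508473-26508722, minus strand: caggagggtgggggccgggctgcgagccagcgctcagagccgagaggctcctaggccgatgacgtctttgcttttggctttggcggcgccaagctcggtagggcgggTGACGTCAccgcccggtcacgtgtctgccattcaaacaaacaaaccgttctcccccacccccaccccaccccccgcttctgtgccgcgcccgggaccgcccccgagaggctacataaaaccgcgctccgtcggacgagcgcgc
Btg2, chr1:134079156-134079405, minus strand: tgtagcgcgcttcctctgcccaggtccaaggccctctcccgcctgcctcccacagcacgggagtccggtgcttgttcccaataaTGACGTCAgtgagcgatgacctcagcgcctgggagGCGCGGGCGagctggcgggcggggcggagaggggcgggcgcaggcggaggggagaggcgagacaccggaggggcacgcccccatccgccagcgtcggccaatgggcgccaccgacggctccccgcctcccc
Egr2, chr10:67537619-67537868, plus strand: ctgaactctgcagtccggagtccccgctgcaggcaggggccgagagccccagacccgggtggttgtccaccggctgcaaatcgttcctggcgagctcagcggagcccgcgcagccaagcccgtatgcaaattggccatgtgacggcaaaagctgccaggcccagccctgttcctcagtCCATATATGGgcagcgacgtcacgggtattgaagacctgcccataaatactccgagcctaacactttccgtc
Nr4a1, chr15:101266596-101266845, plus strand: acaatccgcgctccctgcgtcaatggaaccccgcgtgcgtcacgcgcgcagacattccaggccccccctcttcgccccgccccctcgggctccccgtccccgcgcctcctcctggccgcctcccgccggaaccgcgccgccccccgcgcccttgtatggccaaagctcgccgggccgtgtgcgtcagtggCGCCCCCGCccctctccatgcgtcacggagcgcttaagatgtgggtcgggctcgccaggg

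In these windows the capitals are an EGR match before Fosb, 2 before Klf4, an EGR match and a CArG box before Zfp36, a cAMP response element before Dusp1, and both a cAMP response element and an EGR match before Btg2. Egr2 has a CArG box 72 to 63 bases before its start, and Nr4a1 an EGR match 60 to 52 bases before its own. The Egr2 window is that of 1 of several annotated starts, and the Nr4a1 window lies inside the gene as GENCODE bounds it. Socs3, whose promoter is not printed, also held the EGR letters. Fos, Junb and Jun held none of the 4 in this window, and Egr1 and Ier2 were not analysed here.

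The genes above and beside the early genes in the same pathway were measured too. Of 24 upstream genes, which included Pdgfra, Srf, the Elk factors and Creb1, 0 were called in either direction, with a median log2 fold change of 0.08 (0.04 without other types). Pdgfra stood at 1360.3 against 1163 CPM in pool 1 and 1215 against 1231 in pool 2 (0.13 ± 0.08, edgeR adjusted p = 0.59). Srf stood at 13.3 against 5.83 and 12.6 against 7.97 CPM (0.92 ± 0.32, adjusted p = 0.18). At an unadjusted p under 0.05 edgeR had 2 of the 24 higher and 0 lower, and DESeq2 called 0 of 24.

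ERK feedback and output genes were moderately higher, with 6 of 14 called and 0 lower, and a median of 0.25. Phlda1 was at 456 against 319 and 520 against 332 CPM (0.61 ± 0.07). Spry2, a membrane inhibitor of receptor kinase signalling, was at 175 against 98.7 and 173 against 133 CPM (0.61 ± 0.10). Dusp6, the phosphatase specific for ERK, was at 142 against 83.9 and 157 against 116 CPM (0.61 ± 0.09). Spry1, Spry4 and Spred2 also passed, while Etv1, Etv4, Etv5, Spred1 and Ccnd1 did not, with log2 differences of 0.12 to 0.21 without other types. With Egr1 left out of the score only 2 of the 14 were called. Of 12 tested cytoskeletal targets of SRF and its cofactors 0 were called, with a median of 0.03. DESeq2 called 0 of 15, and 1 of the 12 had an unadjusted p under 0.05 with edgeR.

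**Figure D3:**
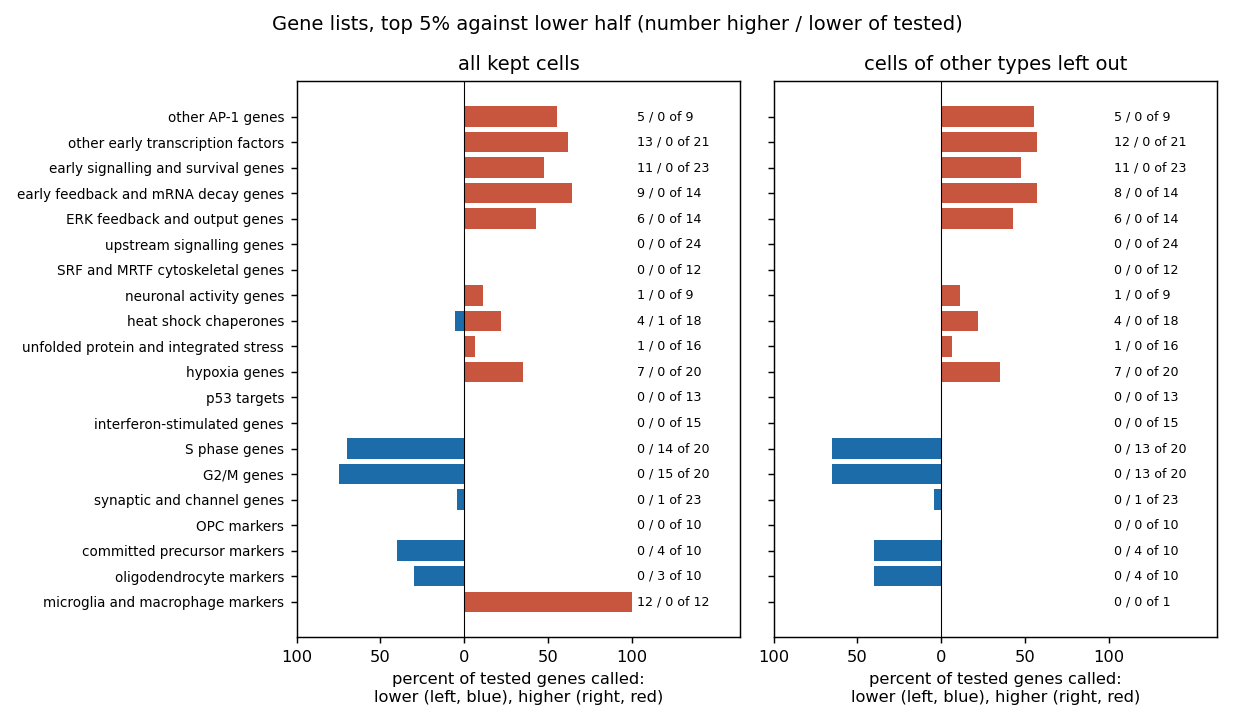
Percent of the tested genes of each list that edgeR called higher (to the right, red) or lower (to the left, blue) in the top 5% against low-score cells, with the numbers beside each bar, for all kept cells and with cells of other types left out. The 4 early lists and the ERK list lie to the right in both panels, S phase and G2/M genes to the left, and the microglia list only in the panel of all kept cells, with 12 of 12.

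Of other stress and response programmes, some genes or none were called. Among 18 heat shock chaperones 4 were higher and 1 lower, and the median was 0.04. The 2 large differences were those of Hspa1a, at 63.3 against 6.21 CPM in pool 1 and 167 against 15.3 in pool 2 (3.44 ± 0.15), and Hspa1b, at 89.9 against 4.08 and 71.6 against 6.63 CPM (3.92 ± 0.21). These inducible Hsp70 genes are near-identical copies, so how reads were divided between them is uncertain. They were held by few cells: without other types Hspa1a was found in 10 and 27 IEG-high cells, and 1 cell of pool 1 gave 64.2% of its UMIs. Dnajb1 (0.60 ± 0.15) and Hsph1 (0.36 ± 0.08) were called higher, and Hspa4 was called lower only with all cells (-0.34 ± 0.09). Hspa8, Hsp90aa1 and Hsp90ab1, the abundant chaperones, stood between -0.06 and -0.02 without other types and did not pass.

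Of 20 hypoxia genes 7 were higher and 0 lower, with medians of 0.69 and 0.62. Bhlhe40, a basic helix-loop-helix repressor, was at 70.0 against 14.3 CPM in pool 1 and 48.4 against 18.8 in pool 2 (1.83 ± 0.19). Vegfa, the vascular growth factor, was at 74.4 against 38.5 and 119 against 31.5 CPM (1.52 ± 0.18), with 23.8% and 26.1% of its UMIs in a single cell of each pool. Bnip3, Slc2a1 and Adm also passed, whereas Ldha and Pgk1, which encode glycolytic enzymes, had log2 differences of 0.21 and 0.11 without other types and did not. Within depth strata 4 of 15 tested hypoxia genes were called and the median was 0.25. Of 9 neuronal activity genes Arc alone was called (1.36 ± 0.33), at 2.21 against 1.04 CPM in pool 1 and 30.5 against 11.8 in pool 2. The IEG-high level of Arc in pool 1 stood for only a few UMIs, so its contrast rests mainly on pool 2. Atf4 alone of 16 unfolded protein and integrated stress genes was called (0.45 ± 0.09). Of 8 tested NF-kB and cytokine genes Ccl3 and Ccl4 were called higher, and neither had enough counts without other types, when edgeR called 0 of 6 and 1 had an unadjusted p under 0.05. DESeq2 on all cells called 2 of 11. Of 13 p53 targets 0 were called by edgeR or DESeq2. At an unadjusted edgeR p under 0.05, 4 of the 13 were higher, against 838 of 13272 over all genes tested. Of 15 interferon-stimulated genes 0 were called by edgeR and 0 of 16 by DESeq2, and 1 was higher at an unadjusted edgeR p under 0.05.

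Genes of the cell cycle were lower in IEG-high cells. Of 20 G2/M genes 15 were lower and 0 higher, with a median of -0.98 (13 and -0.82 without other types), and of 20 S phase genes 14 were lower and 0 higher, with a median of -0.92 (13 and -0.80). Mki67, the proliferation marker, stood at 157 against 331 CPM in pool 1 and 71.6 against 199 in pool 2 (-1.23 ± 0.10, edgeR adjusted p = 7.4e-07). Cenpf, a kinetochore protein, was at 189 against 407 and 94.7 against 247 CPM (-1.21 ± 0.09). Pcna, the replication clamp, was at 93.5 against 144 and 63.7 against 136 CPM (-0.84 ± 0.11). In each of these genes IEG-high cells were the lower class of both pools. Lower genes outside the lists included Gmnn, an inhibitor of replication licensing (-1.72 ± 0.28), Knl1 at the kinetochore (-1.46 ± 0.17) and Prc1 of the mitotic spindle (-1.09 ± 0.09).

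The share of cells called cycling was lower in IEG-high cells of both pools, with intervals that overlapped those of low-score cells. A cell was called cycling when, after thinning to 2000 UMIs, it held UMIs of at least 2 of 10 core genes. This held for 14.5% of IEG-high cells in pool 1 (exact 95% interval 9.08 to 21.5%) and 18.2% of low-score cells (16.2 to 20.3%), and for 6.06% (2.65 to 11.6%) and 11.1% (9.41 to 12.9%) in pool 2. Without thinning the shares were 27.5% and 33.3% in pool 1 and 22.0% and 25.4% in pool 2. With cycling cells left out before scoring, 0 of 19 tested G2/M genes were called by edgeR, 0 had an unadjusted p under 0.05, and their median was 0.04. All 10 core genes belong to the G2/M list, so the removal itself took away much of that list's signal. That fit therefore cannot test the G2/M list. DESeq2 was run on all cells only, with 11 of 20 G2/M and 2 of 20 S phase genes lower. In depth strata 13 of 20 G2/M and 7 of 18 S phase genes were lower. With cycling cells left out 8 of 20 S phase genes were lower, with a median of -0.93. With Egr1 left out of the score 13 G2/M genes and only 1 S phase gene were lower, and without Junb 11 and 5.

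Genes of later oligodendrocyte stages were lower in part when set against low-score cells. Of 10 committed precursor markers 4 were lower and 0 higher, with a median of -0.39. The median was -0.67 in pool 1 and -0.09 in pool 2. DESeq2 called 0 of the 10, and 1 was lower when the whole lower 95% was the comparison. Enpp6, a marker of newly forming oligodendrocytes, stood at 2.21 against 46.6 CPM in pool 1 and 13.7 against 31.8 in pool 2 (-2.08 ± 0.35, edgeR adjusted p = 0.0025), with its UMIs in 3 IEG-high cells of each pool. Sirt2 was at 267 against 450 and 308 against 361 CPM (-0.45 ± 0.10), and Neu4 and Bmp4 also passed. Of 10 oligodendrocyte markers 3 were lower, with a median of -0.71 (4 and -0.73 without other types). The pools differed in sign, with medians of 0.24 in pool 1 and -1.09 in pool 2. For the top 2.5% 2 were higher and 1 lower (median 0.12), and against the lower 95% 1 was higher and 1 lower (median 0.05). In depth strata 0 of 9 oligodendrocyte markers passed edgeR's test, 0 higher and 3 lower at an unadjusted p under 0.05, and DESeq2 on all cells called 2 of 10 lower. From the lower 50% over 50 to 75% and 75 to 95% to the top 5% by score, oligodendrocyte markers did not decline steadily. Without other types their sums were 994, 850, 175 and 753 CPM in pool 1 and 2092, 151, 259 and 1131 in pool 2. The top 5% thus lay above the cells at 75 to 95% in both pools. Its sums were 1005 and 2103 UMIs, and of all IEG-high cells 3 of 138 and 10 of 132 bore the list. Few cells may therefore have held most of these UMIs, and their spread over cells is not given. Cells bearing oligodendrocyte markers were not removed as another type. Synaptic and channel genes, of which 1 of 23 was called (Gria4, lower, with -0.38 ± 0.08), had a median of -0.01.

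Outside the lists, the higher genes of all kept cells were led by genes known from microglia, such as Ly86 (5.07 ± 0.45), Olfml3, Ctsz and Ctsd. Ctsd, a lysosomal protease, was at 377 against 153 CPM in pool 1 and 300.02 against 153 in pool 2 (1.16 ± 0.08), and its difference without other types was 0.03 ± 0.09. Cst3 and Rgs10 likewise went from 1.08 and 1.30 to -0.04 and -0.06. Without other types the higher genes outside the lists included Sbno2 (1.08 ± 0.15) and Adamts1, a secreted metalloprotease, which stood at 84.4 against 36.0 and 80.5 against 47.9 CPM (0.99 ± 0.13). The long noncoding RNA Neat1 (0.91 ± 0.15), the metallothioneins Mt1 (0.66 ± 0.09) and Mt2 (0.74 ± 0.11), Cited2 and Nfatc2 were higher too. Mt1 was at 330.3 against 167 CPM in pool 1 and 827 against 638 in pool 2, so the pools differed more than the classes.

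Whether a gene followed the score below the top class was described over 4 bands of each pool, the lower 50%, 50 to 75%, 75 to 95% and top 5%, with cells of other types taken out of the bands. Fosb went from 6.77 to 26.0, 59.1 and 238 CPM in pool 1 and from 15.5 to 30.2, 60.5 and 208 in pool 2. Socs3 went from 15.3 to 26.3, 42.9 and 180 CPM and from 7.74 to 13.3, 17.7 and 106. Klf4 and Dusp1 had most of their change in the last step, from 7.23 to 48.7 CPM for Klf4 and from 15.2 to 56.2 CPM for Dusp1 in pool 1. Jun climbed more evenly, from 277 to 367, 483 and 912 CPM and from 332 to 477, 577 and 969. In both pools 4 of the 5 called AP-1 genes, 7 of 12 transcription factors, 7 of 11 signalling genes and 6 of 8 feedback genes increased at every step. Of the 6 called ERK feedback genes 2 did so, Spry1 and Spry2. The whole ERK list, in which Ccnd1 is abundant and was not called, had sums of 3821, 4457, 4636 and 4526 CPM in pool 1 and 3999, 4737, 4757 and 4541 in pool 2. Mki67 declined at every step, from 329 to 251, 172 and 160 CPM in pool 1 and from 201 to 182, 134 and 73.1 in pool 2, as did 8 of the 13 called G2/M genes and 5 of the 13 S phase genes. All genes in these counts had been called between nearly the same end bands, so mainly the middle steps could break the order. No such count was made over all genes.

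**Figure D4:**
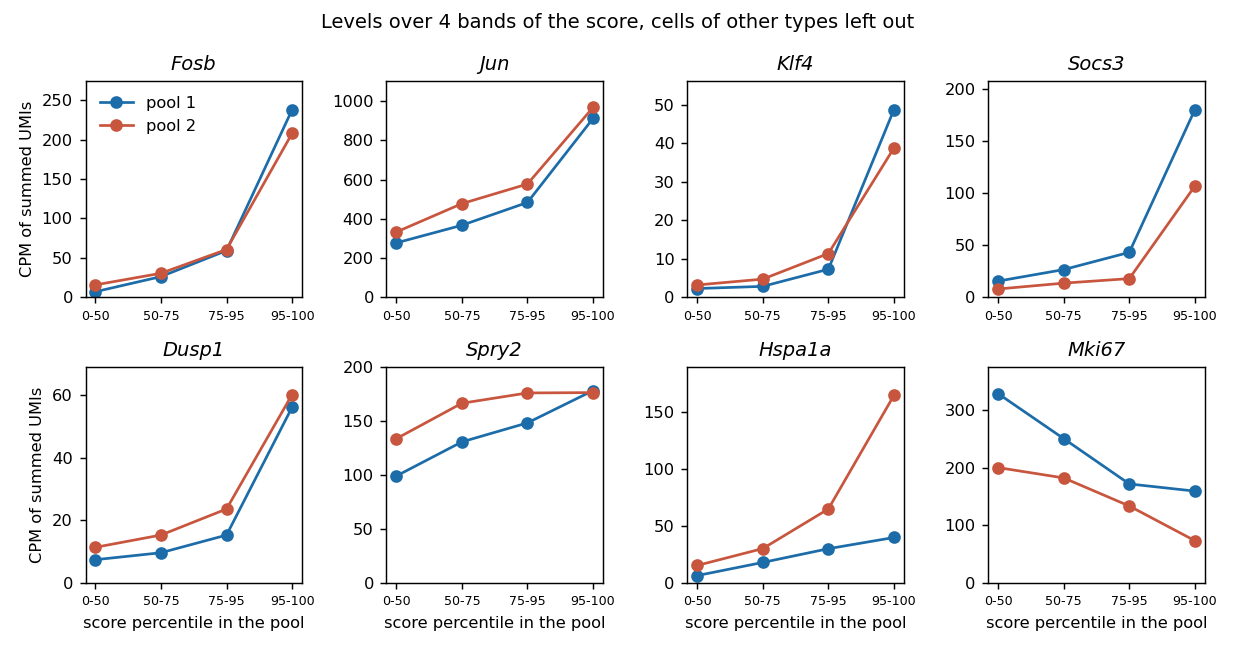
CPM of 8 genes over 4 score bands of each pool (x axis, score percentile), 1 point per pool and band, with cells of other types left out. Fosb, Klf4, Socs3 and Dusp1 step up mainly into the last band, Jun climbs throughout, Spry2 levels off in pool 2 at 176 CPM, and Mki67 declines in both pools.

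IEG-high cells led by Fos and those led by Egr1 were described separately, without a test, since the 2 genes chose the cells. Other types aside there were 67 and 67 such cells in pool 1 and 59 and 64 in pool 2. Cells with a tie between Fos and Egr1 were counted as led by Fos. Fosb stood at 330 CPM in Fos-led and 88.8 in Egr1-led cells of pool 1, and at 321 and 103.2 in pool 2. Socs3 was at 251 against 62.6 and 180 against 42.4 CPM, Klf4 at 72.3 against 10.1 and 57.7 against 21.7, and Jun at 1183 against 473 and 1084 against 845. Junb, Jund, Klf2, Klf6, Dusp1, Btg2, Zfp36 and Gadd45g were also higher in Fos-led cells of both pools. Among genes with at least 20 UMIs in each pool, 4 of 5 AP-1 genes and 7 of 11 feedback genes were higher in Fos-led cells of both pools, and 0 and 3 in Egr1-led cells. Transcription factors were divided, with 6 of 12 higher in Fos-led and 5 in Egr1-led cells, as were signalling genes, with 6 and 4 of 18 and 8 that went opposite ways in the pools. Egr3 was instead at 56.6 against 66.6 and 67.9 against 88.0 CPM, higher in Egr1-led cells, and so were Nr4a1, Myc, Hes1, Klf10, Per1, Hbegf, Ifrd1, Mcl1, Trib1, Tiparp, Zfp36l1 and Zfp36l2. Of 12 ERK feedback genes 7 were higher in Egr1-led cells of both pools and 0 in Fos-led cells, with list sums of 5367 against 4042 and 4825 against 4168 CPM. Hspa1a went opposite ways in the pools, at 15.7 CPM in Fos-led and 80.8 in Egr1-led cells of pool 1 and at 222 and 120 in pool 2. G2/M genes summed to 1637 CPM in Fos-led and 404 in Egr1-led cells of pool 1, and to 926 and 825 in pool 2. The Fos-led cells were deeper, with medians of 11319 against 5309 UMIs and 14440 against 13401, and oligodendrocyte markers summed to 1145 against 111 and 2187 against 181 CPM in them. Heat shock chaperones were divided too, with 7 of 16 higher in Fos-led and 4 in Egr1-led cells of both pools. These counts were made for the lists only, so no share over all genes stands beside them. The part of depth and of oligodendrocyte markers in the contrast was not tested.

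**Figure D5:**
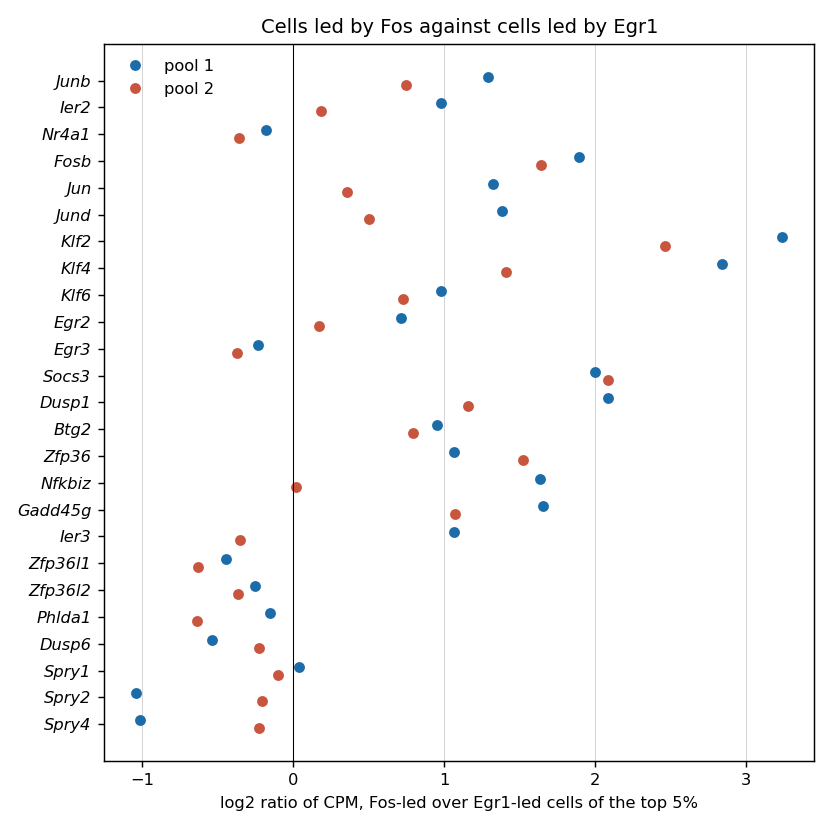
Log2 ratio of CPM in Fos-led over Egr1-led IEG-high cells for 25 genes, 1 point per pool, with cells of other types left out; values right of 0 are higher in Fos-led cells. Fosb, Socs3, Klf2 and Klf4 lie right of 1 in both pools, and Egr3, Nr4a1, Spry2 and Spry4 lie left of 0 in both.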

How the data were processed

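The authors deposited unnormalized UMI counts, with genes and cell barcodes as the table's margins, for 2 pools of sorted glioma cells, made with a droplet 3′ kit and Cell Ranger 6.0.2 on GRCm38/mm10, per the submitters' processing notes. The 2 pools were numbered in accession order. The files list 17447 and 17778 genes, of which 16859 occur in both and were eligible for tests.

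UMIs were summed per pool and class and tested with edgeR 4.0.16 (R 4.3.3; quasi-likelihood F test, TMM factors, filterByExpr, pool as block), with Benjamini-Hochberg adjustment over all genes tested and a threshold of 0.05. With 4 summed libraries 1 residual degree of freedom remained, beside 14.6 prior degrees of freedom (33.3 without other types). The spread behind each p-value was thus mostly borrowed over genes and little measured for the gene itself. The p-values cover these pools only, and cells are not replicates. Summed libraries held between 1357760 and 17946189 UMIs. The score genes stayed in the fit and out of the calls. A standard error is the log2 fold change divided by the root of F. Intervals for shares of cells are exact and cover counting error only. No doublet caller was run; an alternative left out the deepest 3% of cells. Cells of other types were removed in a second fit. Alternatives included DESeq2 1.42.0. The fits were tested on simulated data.

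The members and lists were chosen with earlier results of these data known. Named genes were the score genes, up to 5 members of each list with the smallest p and members called against the list's direction, and, outside the lists, the 12 higher and 12 lower called genes of largest fold with a mean of at least 20 CPM and one direction in both pools. The rule was applied to both fits. Other genes named by value to complete a family or list were chosen after their values were seen. Promoters were searched only before the start, although bases after it had been planned. Coordinates of genes are those of GENCODE vM21. Some named genes are not reported here.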

Additional observations from a re-analysis of the deposited data

How the results depend on the processing

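Of the early genes 38 were higher, and between 30 and 41 under the alternatives other than DESeq2 (23) and the fit without the replicate block (9). With DESeq2 117 genes were higher and 38 lower. Without the replicate block 16 were higher and 0 lower, although 434 and 333 had an unadjusted p under 0.05 with edgeR. With cells of other types left out 115 were higher. With depth terciles as strata 107 of 10367 tested genes were higher and 78 lower. In such strata with other types also left out, an alternative chosen after seeing the data, 84 were higher. The lower genes numbered 244 with library totals only, 297 without a filter on low counts, 332 among cells of 10000 or more UMIs, 420 for the top 10% and 51 with cycling cells left out. With Egr1 left out of the score 78 were lower, with Fos left out 247, and with Junb left out 84 were higher and 76 lower.

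Over 121 named genes, 2451 values stayed on their side of the threshold or, in a single pool, had no test, 239 lost and 44 gained a call, and 8 called values changed sign. The log2 fold change of Rgs10 turned to -0.060 without other types and to -0.021 with depth strata as well, and the log2 fold change of Cst3 to -0.040 and -0.046. With cycling cells left out the log2 fold change of Cenpf turned to 0.075, the log2 fold change of Cenpe to 0.525, the log2 fold change of Prc1 to 0.394 and the log2 fold change of Nuf2 to 0.349. Cenpf is itself a core gene of the cycling call, so cells high in it were removed by construction. Fewer cells and genes entered several of these fits, and further causes were not tested. Shares of cycling cells were 27.5% of IEG-high cells and 33.3% of low-score cells in pool 1 and 22.0% and 25.4% in pool 2 without thinning, and 15.2% and 21.8% in pool 1 and 9.85% and 12.6% in pool 2 when thinned to 3000 UMIs. Leaving out either pool left no residual degrees of freedom, so only values exist. Pool 1 alone gave 6 genes that had not passed the test another sign (Bdnf, Relb, Cdkn1a, Irf7, Ifit2 and Xaf1), and the other 115 kept theirs in each pool.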
